A study of Mus musculus with 32 samples.

Results

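The report covers 10 genes for paired receptors of myeloid cells, out of 33280 genes in each of the count tables: Lilrb4a, Lilrb4b, Pirb, Pilra, Cd300a, Cd300lf, Cd300lb, Trem1, Clec4d and Clec4e. They were found by row name in both tables, and all 10 had a row and passed the filter on low counts in both. They had been chosen with results of these libraries known, and they were selected on values measured in these libraries, among them the higher ipsilateral than contralateral counts in tissue. That difference in tissue is therefore a description: where the number of members called in it is printed, it stands beside the share of all genes, and nothing is read from it.

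Bulk RNA-seq was done on 8 wild type mice after thromboembolic MCAo, a model in which a clot in the middle cerebral artery causes a stroke. The CTL group was 4 mice given vehicle and the BLZ945 group was 4 mice given 200 mg per kg body weight of BLZ945, an inhibitor of CSF1R, the growth factor receptor on which microglia and border macrophages depend. Treatment lasted 7 days, stroke followed 8 weeks later when the emptied niches had been refilled, and samples were taken 1 day after stroke; the study's methods put the first dose at an age of 10 ± 3 weeks. Each mouse gave whole tissue and sorted sdCAMs (subdural CNS-associated macrophages, the macrophages of the brain's borders) from the ipsilateral, lesioned hemisphere and from the contralateral one, so 32 libraries were sequenced. The sort took Ly6C−Ly6G−CD11c−CD45+CD11b+CD206+ cells from brain without choroid plexus. According to the study's methods, sorted cells from BLZ945 mice were pooled across animals for each replicate of the stroke experiment. A figure legend gives this pooling for the reporter mice, and whether it also concerns these wild type libraries was not clear. Every hemisphere was from a stroked mouse, so the contralateral side is a control within the animal and not a sham operation.

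Total counts on genes ran from 9288717 to 12781505 in the 16 tissue libraries and from 7397393 to 11081409 in the 14 sdCAM libraries used. The sdCAM libraries A3 ipsilateral and C2 ipsilateral held 54055 and 55155 counts and were left out, as their labels mark their RNA as degraded, which left 3 ipsilateral sdCAM libraries in each treatment. In tissue, a floor of 3 counts stands for 0.234 to 0.321 CPM (counts relative to the TMM-normalized total of each library), and in sdCAM libraries for 0.253 to 0.389 CPM; this covers counting error only. For CTL mouse A3 the labels name library 19 as ipsilateral tissue and library 20 as contralateral tissue, while the column names of the tissue table give the opposite. The labels were followed, and what changes with the column names is given after the tissue counts.

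Paired receptors are families of closely related surface proteins in which some members carry an ITIM (an inhibitory motif in the cell's interior that recruits the phosphatases SHP-1, SHP-2 or SHIP1) and others join an adaptor with an ITAM, such as DAP12 or the Fc receptor gamma chain, and start signalling through the kinase Syk. Macrophages, microglia, monocytes and neutrophils carry both kinds, and the balance between them sets how strongly the cell responds to a ligand. Their genes lie in clusters of near copies, which matters for counting short reads.

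The libraries sorted as sdCAMs were checked against their defining markers before the receptors were read. All 8 sdCAM markers (Mrc1, which encodes CD206, Pf4, Lyve1, Cd163, Folr2, Ms4a7, Cbr2 and Stab1) were detected in every sdCAM library, with a summed level between 1088 CPM in C4 contralateral and 7284 CPM in D1 ipsilateral, and Mrc1 was the most abundant. In tissue the same list summed to between 20.4 and 37.1 CPM. Microglia markers summed to more than the sdCAM markers in every sdCAM library, from 7754 CPM in C4 contralateral to 29769 CPM in A4 ipsilateral, with all 8 genes of that list that had a row detected throughout. The sdCAM libraries therefore held microglial transcripts above the transcripts that define the sorted cells, and the receptor levels below are levels of the sorted libraries and not of one cell type. In bulk samples, fewer cells of a type and less RNA per cell cannot be told apart.

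Markers of other cell types also differed between these libraries. The neutrophil list (12 genes, led by S100a8) summed to 2077 CPM in C2 contralateral, 3106 CPM in C4 contralateral and 2783 CPM in D1 contralateral, and to 255 CPM in C3 contralateral. In the CTL libraries it lay between 307 CPM in A3 contralateral and 1433 CPM in A4 ipsilateral. Thus 3 of the 4 BLZ945 contralateral libraries stood above all other sdCAM libraries for neutrophil markers, and C3 contralateral stood lowest of all 14. Ly6g, a surface marker that the sort removed cells by, was detected in 5 of the 14 libraries, both of B1 and C2, C4 and D1 contralateral. Mpo was detected in 2, C2 and D1 contralateral. Of the rest of the list, S100a8, S100a9 and Csf3r were detected in all 14 libraries, and Retnlg and Cxcr2 in 13. Mmp8 and Ngp were detected in 12, Stfa2l1 in 10, Camp in 9 and Ltf in 8. Monocyte markers (8 genes, led by Fn1) summed to 1563 CPM in C2 contralateral, 838 CPM in C4 contralateral and 1524 CPM in D1 contralateral, against 255 to 793 CPM in the other 11. Endothelial markers (4 genes, led by Cldn5) summed to between 436 and 1165 CPM in contralateral libraries and to between 22.2 and 96.9 CPM in ipsilateral libraries. Astrocyte markers (4 genes, led by Aqp4) summed to between 165 and 402 CPM in CTL contralateral against 21.9 to 123 CPM in CTL ipsilateral libraries, and to between 46.0 and 422 CPM against 25.7 to 83.8 CPM in BLZ945 libraries. Further lists differed between the hemispheres as well, and the part of any of these markers in the receptor levels was not tested.

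Before the results, the members differ in how surely short reads can be assigned to them. In the GENCODE annotation of GRCm38, 47.2% of the 50-base windows of Lilrb4a transcripts also occurred in transcripts of other annotated genes, with Gm49339 sharing the most (33.7%). For Pirb it was 34% and for Pilra 20.8%, for Cd300a 3.45% and for Cd300lf 2.44%. Cd300lb, Trem1, Clec4d and Clec4e shared none. Lilrb4b was not matched by symbol in this annotation, so no length or sequence was assigned to it here. The annotation names the gene beside Lilrb4a Lilr4b, and this may be Lilrb4b under another symbol, which was not resolved. The counts of Lilrb4a, Lilrb4b and Pirb may therefore be split between near copies, depending on how multi-mapped reads were treated, which is not given in the sources used here. The longest coding stretch that Lilrb4a (chr10:51491665-51491932 in GRCm38, plus strand, across an intron) shared base for base with Lilr4b (chr10:51481371-51481638, plus strand) was 126 bases, and it is shown because a read of 50 bases from it has no base to tell the copies apart.
Lilrb4a and Lilr4b: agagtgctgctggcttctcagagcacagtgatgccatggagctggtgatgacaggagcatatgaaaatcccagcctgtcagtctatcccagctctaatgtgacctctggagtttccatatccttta

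In tissue the members were rare transcripts: the highest value of any member in any tissue library was 7.49 CPM, for Lilrb4b in D1 ipsilateral. Among the inhibitory receptors, Lilrb4a (gp49B, an ITIM receptor of macrophages, mast cells and neutrophils) had 10, 4, 12 and 9 counts in the ipsilateral tissue of CTL mice A2, A3, A4 and B1, and 0, 3, 0 and 2 counts in their contralateral tissue. In BLZ945 mice C2, C3, C4 and D1 it had 21, 10, 9 and 9 counts on the ipsilateral side and 2, 0, 0 and 1 on the contralateral side. Every ipsilateral library was above every contralateral library in both treatments. The mean level was 0.732 ± 0.296 CPM ipsilateral against 0.110 ± 0.130 CPM contralateral in CTL mice and 1.21 ± 0.519 against 0.0770 ± 0.102 CPM in BLZ945 mice (SD, n = 4 per group).

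Lilrb4b, the neighbouring gp49 gene, whose product gp49A lacks the ITIMs of gp49B and which is given here beside its near copy, was the most abundant member in ipsilateral tissue by counts. It had 20, 38, 21 and 55 counts in the ipsilateral tissue of A2, A3, A4 and B1, and 0, 0, 0 and 1 in the contralateral tissue. In C2, C3, C4 and D1 it had 49, 13, 26 and 75 counts against 0, 2, 3 and 1. The hemispheres did not overlap in either treatment. Over the CTL group, 134 ipsilateral counts stood against 1 contralateral count, a ratio of 126 with a 95% counting interval from 22.1 to 4995. In BLZ945 mice the level was 4.04 ± 2.67 CPM against 0.145 ± 0.123 CPM (SD, n = 4 per group).

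Pilra (an ITIM receptor for sialylated O-glycans) had 6, 16, 9 and 25 ipsilateral and 3, 0, 0 and 0 contralateral counts in A2, A3, A4 and B1. In C2, C3, C4 and D1 it had 24, 14, 13 and 20 against 1, 1, 5 and 3. Again the hemispheres did not overlap in either treatment, with the smallest gap in CTL mice, where A2 ipsilateral had 0.468 CPM and A2 contralateral 0.238 CPM. The CTL group ratio was 17.5, with a 95% counting interval from 5.68 to 87.4.

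The remaining inhibitory members were less alike. Cd300a (an ITIM receptor for phosphatidylserine and phosphatidylethanolamine, lipids exposed on dying cells) had 6, 24, 8 and 15 ipsilateral and 12, 20, 9 and 9 contralateral counts in A2, A3, A4 and B1. In C2, C3, C4 and D1 it had 23, 9, 6 and 18 against 8, 16, 17 and 10. Its hemispheres overlapped in both treatments, with means of 1.12 ± 0.704 against 1.10 ± 0.401 CPM in CTL mice and 1.38 ± 0.729 against 1.26 ± 0.425 CPM in BLZ945 mice (SD, n = 4 per group), so it was the member whose levels were closest between the hemispheres. Pirb (an ITIM receptor for MHC class I) had 1.03 ± 0.617 against 0.616 ± 0.394 CPM in CTL and 1.42 ± 0.944 against 0.505 ± 0.361 CPM in BLZ945 mice, and its hemispheres overlapped in both. Cd300lf (which binds lipids and carries ITIMs) had 0.951 ± 0.578 against 0.265 ± 0.107 CPM in CTL mice, where A2 had 5 counts on each side, and 1.63 ± 0.813 against 0.358 ± 0.212 CPM in BLZ945 mice, where the hemispheres did not overlap.

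The activating members were at or near 0 in contralateral tissue. Cd300lb, which signals through DAP12, had 4, 7, 4 and 7 ipsilateral counts in A2, A3, A4 and B1 and none on the contralateral side, at least 6.87-fold higher against a floor of 3 counts over the group. In C2, C3, C4 and D1 it had 19, 2, 7 and 14 against 0, 0, 2 and 0, a ratio of 21.1 with a 95% counting interval from 5.50 to 180. Ipsilateral libraries were above contralateral ones throughout, by little in BLZ945 mice, where C3 ipsilateral had 0.201 CPM and C4 contralateral 0.186 CPM.

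Clec4d and Clec4e are neighbouring C-type lectin genes whose products (MCL and Mincle) bind glycolipids, and Mincle also binds SAP130 from dying cells; both use the Fc receptor gamma chain. Clec4d had 0, 12, 9 and 17 ipsilateral counts in A2, A3, A4 and B1 and none contralaterally, at least 11.9-fold higher over the group, and 24, 5, 4 and 9 against 0, 1, 0 and 0 in C2, C3, C4 and D1. Clec4e had 0, 5, 2 and 21 ipsilateral counts in the CTL mice and 23, 2, 5 and 20 in the BLZ945 mice, and none in any contralateral tissue library, at least 8.74-fold and at least 16.8-fold higher; in CTL mice 21 of the 28 counts were those of B1. Mouse A2 had no count of either gene on the lesioned side, which makes the CTL hemispheres overlap at 0, while the BLZ945 hemispheres did not overlap. Trem1 (an amplifier of inflammatory signalling through DAP12, known from neutrophils and monocytes) had 0, 0, 1 and 14 ipsilateral counts in CTL mice and 7, 1, 0 and 3 in BLZ945 mice, with none contralaterally. It was thus mostly a signal of B1 among the CTL mice, and its hemispheres overlapped at 0 in both treatments.

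**Figure D1:**
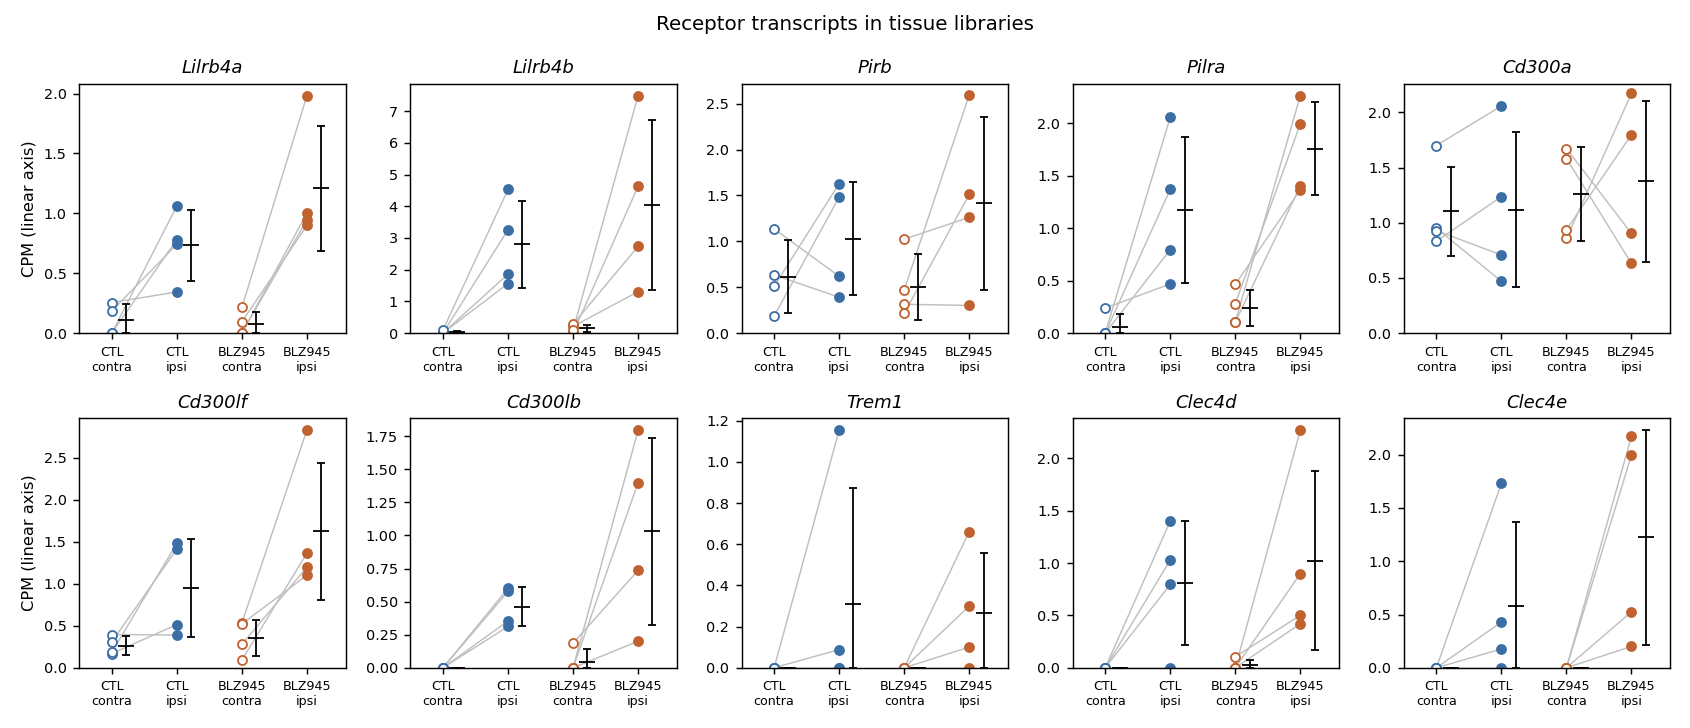
Level of each member in the 16 tissue libraries, in CPM on a linear axis. Points are libraries (open contralateral, filled ipsilateral; blue CTL, orange BLZ945), grey lines join the hemispheres of a mouse, and bars beside the points are the mean ± SD with n = 4 per group, cut at 0 below; Lilrb4b reached 7.49 CPM, and Cd300a lay at similar levels in both hemispheres.

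Counted over the members, ipsilateral and contralateral tissue did not overlap for 4 of 10 genes in CTL mice (Lilrb4a, Lilrb4b, Pilra and Cd300lb), where this held upward for 2.45% of the 18968 genes tested, and for 7 of 10 in BLZ945 mice (also Cd300lf, Clec4d and Clec4e), where it held for 4.2%. With edgeR's quasi-likelihood test and Benjamini-Hochberg adjustment over all genes, called at an adjusted p under 0.05 and a log2 fold change beyond 0.59, 2 members were called up in CTL mice, against 0.443% of all genes, and 4 in BLZ945 mice, against 1.12%. DESeq2 called 4 and 7 members, against 0.722% and 1.76% of all genes. With the mouse as a replicate block 3 members were called in CTL mice, against 0.938% of all genes, and 7 in BLZ945 mice, against 1.99%. Since this difference chose the members, nothing is read from these counts.

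The CTL values in tissue depend on which library of A3 is ipsilateral. With its hemispheres as in the column names, Lilrb4b would have 0 ipsilateral and 38 contralateral counts in A3, and Pilra 0 and 16. None of the members would then be without overlap in CTL mice (0 of 10, against 0.807% of all genes, a count added after seeing the data), and the log2 fold change would be 1.21 ± 1.06 for Lilrb4b and 0.99 ± 0.94 for Pilra (SE). The ratios and lower bounds of the CTL mice above hold only for the mapping in the labels. Under the labels, monocyte markers summed to 145 CPM in ipsilateral and 110 CPM in contralateral tissue of A3, where the other mice had 131 to 229 CPM and 80.3 to 110 CPM. In tissue this sum is mainly a level of Fn1 and Vcan, with means of 107 and 25.9 CPM. The libraries of BLZ945 mice are the same under both mappings, but no member was called in either treatment with the column names (0 and 0, against 0% and 0.0316% of all genes).

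The difference between the treatments in the ipsilateral against contralateral change was tested in each table, but since values of these same libraries chose the members, neither this nor the sdCAM comparisons are independent of that choice. In tissue, edgeR's quasi-likelihood test with Benjamini-Hochberg adjustment called no member and 0% of all genes for it. By the same test no member and 386 of 18968 genes had an unadjusted p under 0.05. DESeq2 called no member and 0 of 18967 genes. Comparing BLZ945 with CTL mice within the ipsilateral tissue, 9 of the 10 members had a positive log2 fold change, from 0.31 for Cd300a to 1.15 for Cd300lb, and Trem1 had −0.20. None was called, as was 0% of all genes, and no member but 858 genes had an unadjusted p under 0.05. The largest, that of Cd300lb, was 1.15 ± 0.66 (SE; 95% interval −0.15 to 2.45), with an adjusted p of 0.958 from edgeR's quasi-likelihood test. In contralateral tissue 0% of genes and no member were called between the treatments, and Trem1 and Clec4e were at 0 in all 8 libraries. No difference between the treatments in tissue was detected for the members, and the reason was not tested. The intervals leave room for a rise of more than 2-fold in every member on the ipsilateral side.

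In the sorted libraries the mean of every member in every group was above its means in tissue, although single libraries were low, such as A4 ipsilateral with 0.519 CPM of Clec4d. The order of the levels can be compared between genes per length, as CPM per kb of annotated exon, for the 9 members with a length. In CTL contralateral sdCAM libraries Cd300a stood first with 42.4 ± 10.8, followed by Pirb with 13.1 ± 6.24, Clec4d with 12.8 ± 10.7 and Pilra with 11.4 ± 1.64 (CPM per kb, SD, n = 4). Lilrb4a was last with 3.51 ± 1.88, close to Cd300lb and Cd300lf. Only Cd300a stood apart from the next gene by more than their spreads; the others overlapped with their neighbours in the order. In BLZ945 contralateral libraries Clec4d (53.7 ± 40.8) and Clec4e (42.5 ± 35.8) stood before Pilra (34.4 ± 16.7) and Cd300a (29.3 ± 6.73), with spreads that overlapped among all of them. Tissue and sdCAM tables were normalized separately, so no test was made between them.

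Within CTL mice, Lilrb4b and Cd300lb were the members whose ipsilateral sdCAM libraries lay above all contralateral ones. Lilrb4b had 244, 114 and 221 CPM in A2, A4 and B1 ipsilateral and 95.6, 27.3 and 97.9 CPM in A2, A3 and B1 contralateral, with A4 contralateral lowest at 237 counts. Cd300lb had 40.4, 17.9 and 47.0 CPM ipsilateral and 9.97, 11.4, 3.80 and 16.2 CPM contralateral in the same mice. Both were higher on the lesioned side in 3 of 3 mice with both libraries, and the lowest ipsilateral library was A4 for each. Monocyte markers had the same low library, with 678, 299 and 793 CPM in A2, A4 and B1 ipsilateral against 255 to 366 CPM contralateral. Neutrophil markers ran the other way, with 315, 1433 and 613 CPM against 307 to 772 CPM. Endothelial and astrocyte markers, among others, were lower ipsilaterally. The part of any of these lists in the change was not tested. Lilrb4b and Cd300lb made 2 of 10 members without overlap, where 5.7% of the 18297 genes tested were so ordered. The log2 fold change was 1.68 ± 0.64 for Lilrb4b (adjusted p = 0.180) and 1.77 ± 0.57 for Cd300lb (adjusted p = 0.110; SE, edgeR's quasi-likelihood test with Benjamini-Hochberg adjustment). No member was called, while 0.426% of all genes were called up; 3 members (Lilrb4b, Pilra and Cd300lb) and 18.3% of all genes had an unadjusted p under 0.05, and DESeq2 called Cd300lb and 1.53% of all genes up. Pairing the hemispheres by a replicate block for the mouse called both genes, Lilrb4b with a log2 fold change of 1.67 ± 0.32 and an adjusted p of 0.0279 and Cd300lb with 1.92 ± 0.35 and 0.0220 (edgeR's quasi-likelihood test), 2 of 10 members where 0.126% of all genes were called up. Because A3 has no partner library, these blocked values rest on 3 CTL mice.

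Lilrb4a and Pilra were also higher on the lesioned side in 3 of 3 CTL mice, with overlapping hemispheres. Lilrb4a had 25.2, 30.4 and 82.2 CPM in A2, A4 and B1 ipsilateral against 7.35, 13.5 and 29.5 CPM in A3, A4 and B1 contralateral and 245 counts in A2 contralateral, below A2 ipsilateral in CPM, and only B1 stood far above the rest. Pilra had 84.0, 37.5 and 88.3 CPM ipsilateral against 38.8, 31.7, 30.4 and 40.6 CPM contralateral, with A4 within the contralateral range. Their log2 fold changes were 1.32 ± 0.62 and 0.98 ± 0.41 (SE), with adjusted p of 0.275 and 0.217 from edgeR's quasi-likelihood test with Benjamini-Hochberg adjustment. When the counts of Lilrb4a and Lilrb4b were summed before the fit, the log2 fold change was 1.61 ± 0.60, with an adjusted p of 0.168 by the same edgeR quasi-likelihood test. Cd300a lay at 215 ± 39.5 CPM (n = 3) against 201 ± 51.3 CPM (n = 4) in CTL mice, and its hemispheres overlapped, as did those of Pirb, Cd300lf, Trem1, Clec4d and Clec4e.

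The same comparison in BLZ945 mice follows, and its difference from that in CTL mice is tested further below. Cd300a had 214, 224 and 246 CPM in C3, C4 and D1 ipsilateral and 141, 125, 108 and 182 CPM in C2, C3, C4 and D1 contralateral. It was the 1 member of 10 without overlap between the hemispheres, where 7.44% of all genes had every ipsilateral library above every contralateral one, and it was higher on the lesioned side in 3 of 3 mice. The summed sdCAM markers were ordered the same way, with 3505, 4491 and 7284 CPM in C3, C4 and D1 ipsilateral against 1283, 2088, 1088 and 3317 CPM in C2, C3, C4 and D1 contralateral. Microglia markers were also higher ipsilaterally in C3, C4 and D1, with 23448, 18487 and 10941 CPM against 14365, 7754 and 9616 CPM, but their hemispheres overlapped. The part of these lists in the level of Cd300a was not tested. The log2 fold change of Cd300a was 0.72 ± 0.23 (SE), with an adjusted p of 0.0799 from edgeR's quasi-likelihood test with Benjamini-Hochberg adjustment, so it was not called. No member was called in this comparison, against 1.2% of all genes called up; 1 member, Cd300a, had an unadjusted p under 0.05, where 22.3% of all genes did, and DESeq2, which called 2.59% of genes up, called Cd300a. Cd300lb was higher ipsilaterally in 3 of 3 mice as well, with 39.1, 49.0 and 103 CPM in C3, C4 and D1 against 49.4, 14.1, 22.6 and 66.9 CPM in C2, C3, C4 and D1 contralateral, and the hemispheres overlapped. Its log2 fold change was 0.74 ± 0.56 (SE; 95% interval −0.35 to 1.83). Lilrb4b, without overlap in CTL mice, had 85.4, 139 and 234 CPM in C3, C4 and D1 ipsilateral against 256, 43.2, 66.5 and 255 CPM in C2, C3, C4 and D1 contralateral. Here its hemispheres overlapped, and the log2 fold change was −0.02 ± 0.64, or 0.64 ± 0.31 (SE) with the mouse as a replicate block.

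Beside Lilrb4b, whose means were nearly equal, Trem1, Clec4d, Clec4e and Cd300lf had lower means on the lesioned side of BLZ945 mice. Clec4e had 15.5, 36.7 and 101 CPM in C3, C4 and D1 ipsilateral against 307, 0, 137 and 400 CPM in C2, C3, C4 and D1 contralateral. In C3 contralateral it had no count among 9177495, below a floor of 0.310 CPM. Trem1 had 5.24, 50.1 and 17.8 CPM ipsilateral against 89.8, 2.79, 121 and 78.1 CPM contralateral, and Clec4d 17.2, 45.4 and 95.0 CPM against 139, 7.85, 56.4 and 140 CPM. For Clec4e, Trem1 and Clec4d alike, C2, C4 and D1 contralateral were above every CTL contralateral library, C3 contralateral was below C3 ipsilateral, and the hemispheres overlapped. These 3 higher libraries were the ones with 2077 to 3106 CPM of neutrophil markers. A4 ipsilateral was next highest for these markers with 1433 CPM, without a count of Mmp8, Ly6g, Stfa2l1 and Mpo. It had 2.08 CPM of Clec4e, 7.26 CPM of Trem1 and 0.519 CPM of Clec4d. The part of neutrophil markers in these levels was not tested. The log2 fold changes of −2.04 ± 1.38, −1.58 ± 1.14 and −0.71 ± 1.08 (SE) for Clec4e, Trem1 and Clec4d were not called, with adjusted p of 0.394, 0.431 and 0.763 (edgeR's quasi-likelihood test with Benjamini-Hochberg adjustment). With the mouse as a replicate block the log2 fold change of Clec4d was 0.05 ± 0.53 (SE).

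**Figure D2:**
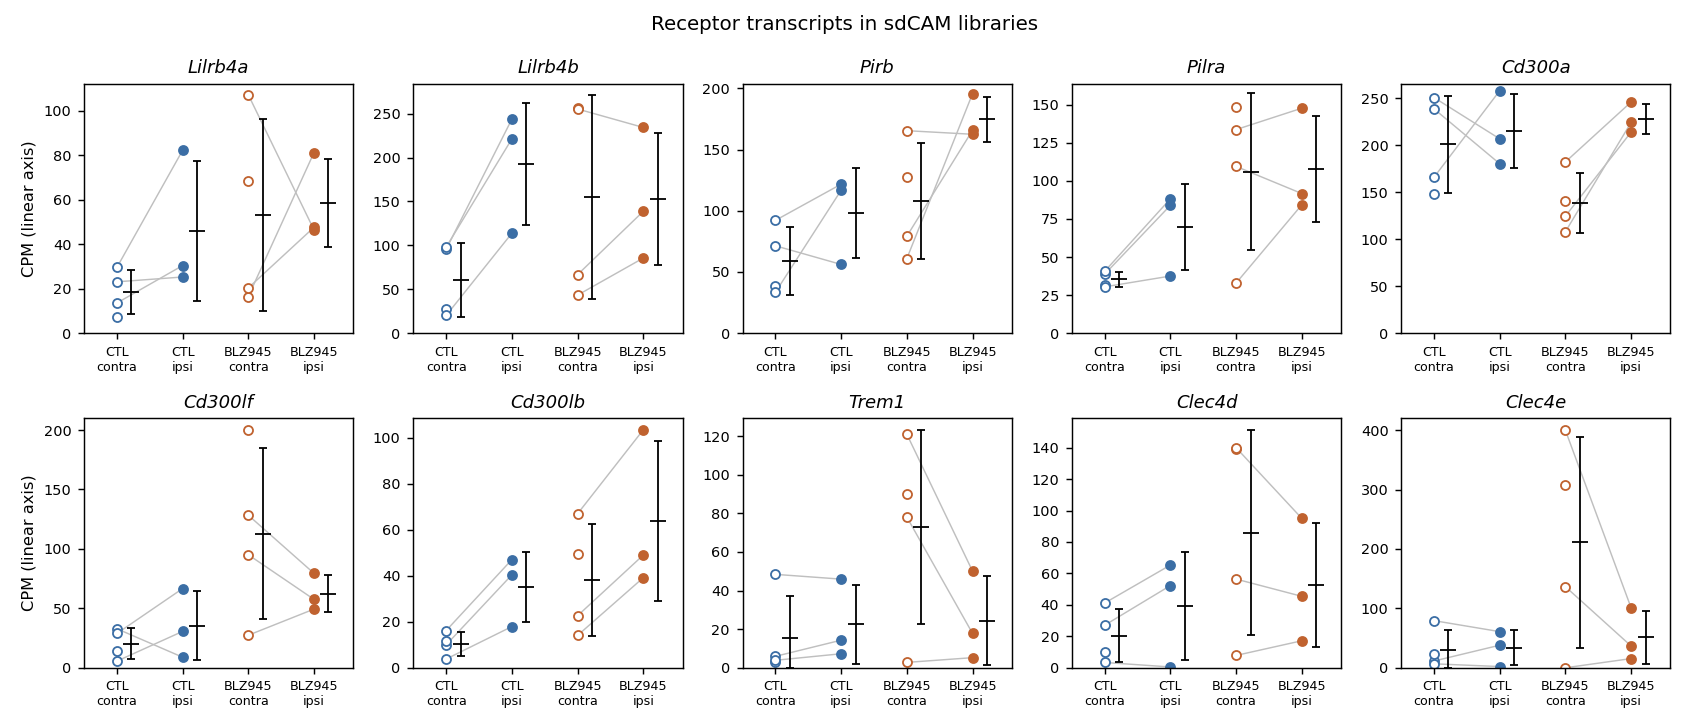
Level of each member in the 14 sdCAM libraries, in CPM on a linear axis. Points are libraries (open contralateral, filled ipsilateral; blue CTL, orange BLZ945), grey lines join the hemispheres of a mouse, and bars are the mean ± SD (n = 4 contralateral, n = 3 ipsilateral), cut at 0 below; Clec4e ranged from 0 to 400 CPM among BLZ945 contralateral libraries.

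The test of the difference between the treatments in the hemisphere change called 0% of genes and no member in sdCAM libraries by edgeR's quasi-likelihood test. DESeq2 called no member, and 12 up and 36 down of all 18055 genes. By edgeR's test no member and 912 genes had an unadjusted p under 0.05. The estimates ran from −2.21 for Clec4e to 0.62 for Cd300a on the log2 scale, with 9 of the 10 below 0. For Lilrb4b it was −1.70 ± 0.92 (SE; 95% interval −3.50 to 0.09) and for Cd300a 0.62 ± 0.32 (95% interval −0.02 to 1.25). The hemisphere changes of CTL and BLZ945 sdCAM libraries are thus not shown to differ for any member.

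Between the treatments, contralateral sdCAM libraries are described before ipsilateral ones. Cd300lf had 200, 27.4, 128 and 95.1 CPM in BLZ945 mice C2, C3, C4 and D1 and 32.8, 5.57 and 28.8 CPM in CTL mice A2, A4 and B1, with 145 counts in A3. Pilra had 149, 32.9, 134 and 110 CPM in the BLZ945 mice and 38.8, 31.7, 30.4 and 40.6 CPM in the CTL mice. Both were high in C2, C4 and D1, and C3 lay within the CTL range. The log2 fold change was 2.47 ± 0.65 (SE) for Cd300lf and 1.59 ± 0.39 for Pilra, each with an adjusted p of 0.759 from edgeR's quasi-likelihood test with Benjamini-Hochberg adjustment.

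The same libraries were high for the activating members. Mean levels in BLZ945 against CTL contralateral libraries were 211 ± 178 against 30.0 ± 33.5 CPM for Clec4e, 72.9 ± 50.1 against 15.3 ± 22.1 CPM for Trem1, 85.9 ± 65.2 against 20.4 ± 17.1 CPM for Clec4d and 38.2 ± 24.3 against 10.3 ± 5.10 CPM for Cd300lb (SD, n = 4 per group). The groups overlapped for each of them, through C3 in every case. Cd300a went the other way, with 139 ± 31.9 CPM in BLZ945 against 201 ± 51.3 CPM in CTL libraries and a log2 fold change of −0.53 ± 0.21 (SE). Over the list, 9 of 10 members were higher in BLZ945 libraries and the median log2 fold change was 1.74, while 49.6% of all genes were higher and their median was 0. At an unadjusted p under 0.05 there were 9 members (all but Clec4d), against 6.19% of all genes. After adjustment edgeR called none and 0% of all genes, while DESeq2 called 2 members, Cd300lf and Pilra, and 0.244% of all genes. For Cd300lf, Pilra, Clec4e, Trem1, Clec4d and Cd300lb, C2, C4 and D1 were above every CTL contralateral library, and for Lilrb4a, Lilrb4b and Pirb C2 and D1 were, with C4 within the CTL range. Neutrophil markers (2077, 255, 3106 and 2783 CPM in C2, C3, C4 and D1 against 307 to 772 CPM in CTL contralateral libraries) and monocyte markers (1563, 263, 838 and 1524 CPM against 255 to 366 CPM) were also higher in C2, C4 and D1, and the sdCAM markers were at 1283, 2088, 1088 and 3317 CPM against 1588 to 5009 CPM. Microglia markers were lower in all 4 BLZ945 libraries, including C3, than in any CTL contralateral library (7754 to 14365 CPM against 14872 to 20629 CPM); the part of any of these lists in the difference was not tested.

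On the lesioned side, 9 of the 10 members had a positive log2 fold change between BLZ945 and CTL sdCAM libraries, the largest being 0.86 ± 0.60 (SE) for Cd300lb, and Lilrb4b had −0.34 ± 0.69. Pirb had 196, 166 and 162 CPM in C3, C4 and D1 against 56.1, 117 and 122 CPM in A2, A4 and B1, so the groups did not overlap for it, as the 1 member of 10, where 3.1% of all genes had every BLZ945 library above every CTL library. Its log2 fold change was 0.83 ± 0.42 with an adjusted p of 0.838 (SE, edgeR's quasi-likelihood test with Benjamini-Hochberg adjustment). Endothelial marker sums, among others, were lower in these BLZ945 libraries without overlap. They were 34.1, 22.2 and 39.0 CPM in C3, C4 and D1 against 96.9, 71.2 and 47.0 CPM in A2, A4 and B1. Their part in the level of Pirb was not tested. No member and 0% of genes were called; no member and 1034 genes had an unadjusted p under 0.05, and DESeq2 called no member and 0.709% of all genes.

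**Figure D3:**
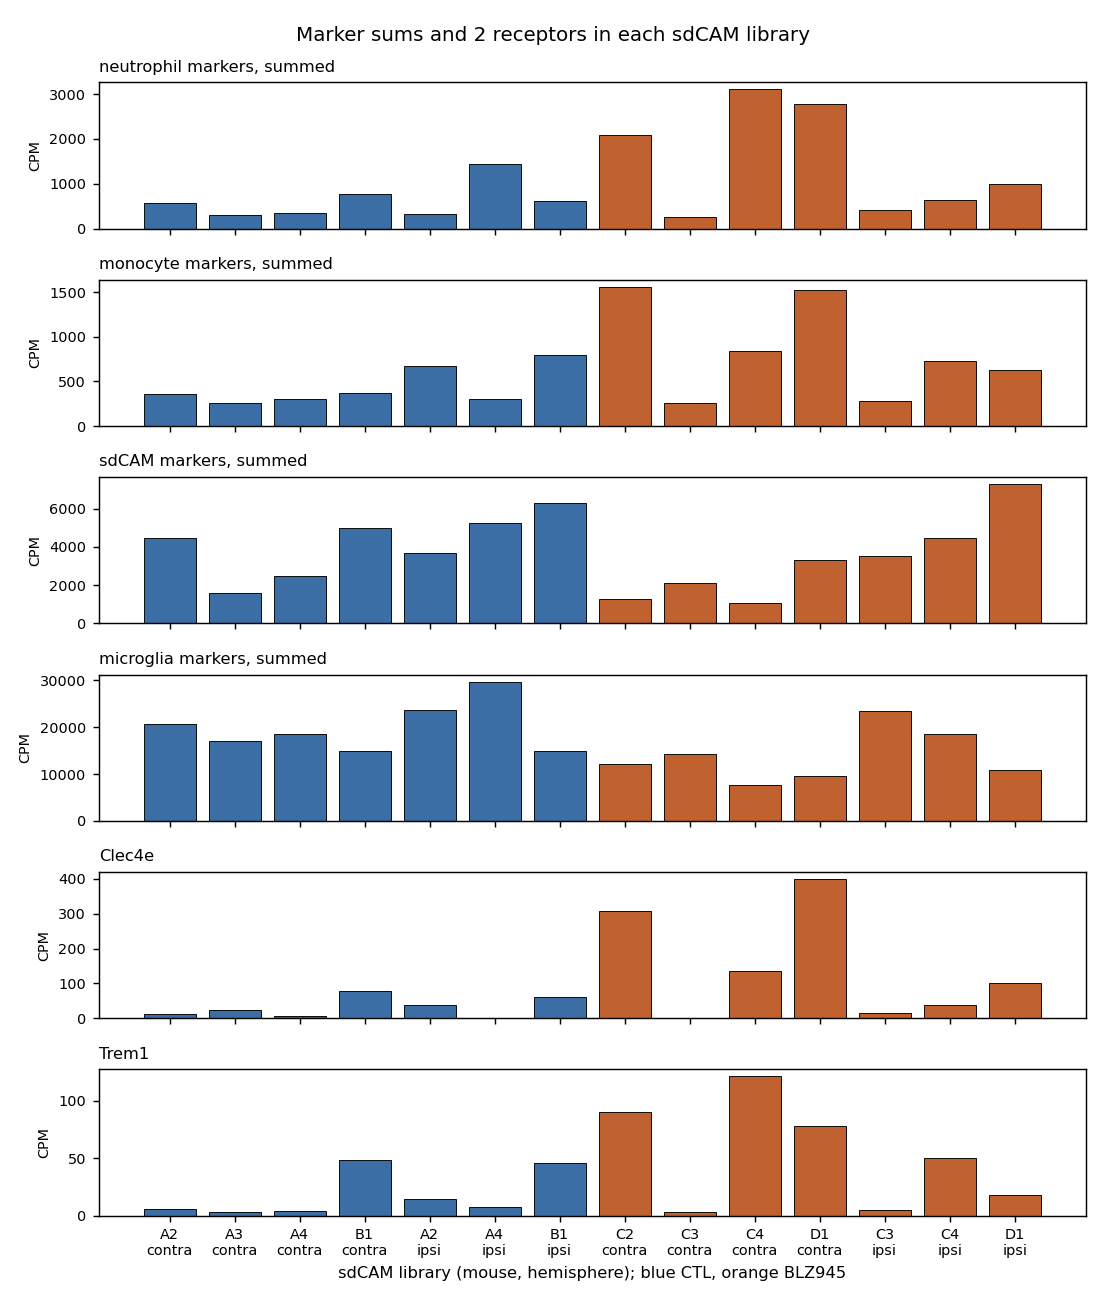
Summed level of the neutrophil, monocyte, sdCAM and microglia marker lists, and the levels of Clec4e and Trem1, in each of the 14 sdCAM libraries (CPM, bars from 0, blue CTL, orange BLZ945). The neutrophil sum was 2077, 3106 and 2783 CPM in C2, C4 and D1 contralateral and 255 CPM in C3 contralateral, where Clec4e was at 0; it was 1433 CPM in A4 ipsilateral, where Clec4e was at 2.08 CPM.

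Genes that work with the receptors were followed as fixed lists. Of 15 adaptor and activating signalling genes, 2 were called up in tissue in CTL mice and 2 in BLZ945 mice, in both cases Vav1 and Fcer1g. Of all genes, 0.443% in CTL and 1.12% in BLZ945 mice were called up in tissue. In sdCAM libraries these shares were 0.426% and 1.2%. Fcer1g, the Fc receptor gamma chain that carries Clec4d and Clec4e, had 14.1 ± 1.40 CPM ipsilateral against 8.41 ± 1.08 CPM contralateral in CTL tissue (log2 fold change 0.75 ± 0.16 SE, adjusted p = 0.0445, edgeR's quasi-likelihood test with Benjamini-Hochberg adjustment). Tyrobp, which encodes DAP12, had 18.3 ± 1.61 against 12.9 ± 0.656 CPM (SD, n = 4) and a log2 fold change of 0.50, under the fold change threshold. Syk and Card9, which act below these adaptors, were not called in tissue. In sdCAM libraries Vav1 was called up in CTL mice (511 ± 32.1 against 258 ± 42.1 CPM) and Vav1 and Lyn in BLZ945 mice, while Tyrobp and Fcer1g were not called; the median log2 fold change of the list was 0.67 and 0.69, against −0.11 and −0.15 for all genes. In these ipsilateral libraries the endothelial and astrocyte marker sums, among others, were lower than contralaterally. Microglia sums were higher on the lesioned side of BLZ945 mice, with 23448, 18487 and 10941 CPM in C3, C4 and D1 against 14365, 7754 and 9616 CPM. The part of any of these lists in these medians was not tested. With the hemispheres of A3 as in the column names, no gene was called in CTL tissue and 6 genes were in BLZ945 tissue. None of them was in the lists followed here, so the tissue calls of list genes were lost in that fit (an alternative added after seeing the data). With a replicate block added to it, 0 genes were called in CTL tissue, and 173 up and 12 down in BLZ945 tissue. The lists were not checked in the fit with the block.

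Of the 8 inhibitory phosphatase and docking genes, Ptpn6 (SHP-1) was called up in BLZ945 tissue, with 8.57 ± 0.442 CPM ipsilateral against 3.91 ± 0.460 CPM contralateral and a log2 fold change of 1.13 ± 0.19 (SE). None of this list was called in CTL tissue, where Ptpn6 had 6.93 ± 1.74 against 4.43 ± 0.563 CPM. The shares of all genes called up were 1.12% in BLZ945 and 0.443% in CTL tissue, and 1.2% and 0.426% in sdCAM libraries. In sdCAM libraries 1 gene was called up in each treatment, Dok1 in CTL and Inpp5d (SHIP1) in BLZ945 mice; Inpp5d had 641 ± 123 against 314 ± 102 CPM in BLZ945 and 670 ± 153 against 370 ± 76.3 CPM in CTL libraries. Ptpn11 (SHP-2), which most brain cells express, was not called in any comparison and lay between 274 and 289 CPM on average in the 4 tissue groups.

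Of 45 other paired receptor genes, 43 had a row and 31 were tested in tissue. There, Cd300ld was called up in CTL mice, and Cd300ld, Clec4n and Clec7a were called up and Siglech down in BLZ945 mice. Of all genes, 0.443% were called up in CTL tissue. In BLZ945 tissue 1.12% were called up, and 7 of 18968 genes were called down. Clec7a (Dectin-1, a receptor for beta-glucans) had 4.94 ± 2.23 against 0.951 ± 0.699 CPM in BLZ945 tissue, and Siglech, a microglial gene that also stands in the microglia and dendritic cell marker lists, 7.40 ± 1.27 against 13.6 ± 1.57 CPM (SD, n = 4). In sdCAM libraries 42 were tested. None was called in CTL mice, and Sirpa (the receptor for the inhibitory ligand CD47) and Siglece were called up in BLZ945 mice. Of all genes, 0.426% were called up in CTL and 1.2% in BLZ945 sdCAM libraries. Sirpa had 1975 ± 458 against 946 ± 370 CPM and Siglece 188 ± 13.3 against 102 ± 18.2 CPM. Of the 13 ligand genes, Fn1 was called up in tissue in both treatments, and Cd200 and Pglyrp1 were called down in sdCAM libraries in both treatments, where 2.36% of all genes were called down in CTL and 4.41% in BLZ945 mice. Pglyrp1, whose product binds TREM-1, had 10.6 ± 4.30 against 110 ± 67.9 CPM in CTL sdCAM libraries (log2 fold change −3.38 ± 0.50 SE), and Cd200, an inhibitory ligand of endothelium and neurons, 17.2 ± 10.5 against 151 ± 77.2 CPM; the endothelial marker sum was also lower in these ipsilateral libraries, between 47.0 and 96.9 CPM against 436 to 1165 CPM, and its part was not tested. No gene of these 4 lists was called between the treatments in either table.

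The genes whose deviations from the group means were most like those of a member were named by Pearson's r of log2(CPM + 1) over the libraries of a table, as a description. In sdCAM libraries (14 libraries from 8 mice) Trem1 was most like Cxcr2 (r = 0.935), a chemokine receptor of neutrophils, Clec4d most like Slc39a14 (r = 0.955) and then Mmp8 (r = 0.950), a neutrophil collagenase, and Cd300lb most like Pitpna (r = 0.961) and then Mmp8 (r = 0.948). Both Cxcr2 and Mmp8 stand in the neutrophil marker list. Clec4e was most like Gsr (r = 0.959) and then Acod1 (r = 0.951), Lilrb4b most like Ccl3 (r = 0.967), Plin2 (r = 0.962) and C5ar1 (r = 0.951), Lilrb4a like Ctla4 (r = 0.942) and Cd300a like Arhgap19 (r = 0.945). In tissue (16 libraries) Lilrb4b was most like Il1rn (r = 0.915), and Clec4e like Ccl9 (r = 0.964) and Il1rn (r = 0.935). Lilrb4a, Lilrb4b and the other members shared no most-like gene between the tables, and with the counts of most members near the floor in tissue the values there carry little weight.

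Clec4d and Clec4e lie next to each other on opposite strands and had their high and low sdCAM libraries in common, so the 250 bases before their starts are shown, from RefSeq on GRCm38.p6, for Clec4d at chr6:123261857-123262106 (plus strand) and for Clec4e at chr6:123289872-123290121 (minus strand). Capitals mark GAGGAA, a core of the motif of the myeloid factor PU.1, on either strand. It occurred in 7 of the 8 members matched to a promoter and in 23.3% of all 32851 promoters of this length, while TGANTCA, the AP-1 motif, occurred in 0 of 8 and in 6.75%. The promoter of Lilr4b, the near copy of Lilrb4a, held 0 matches of either motif. It is not among the 8, because members were matched by symbol, but it may be that of the member Lilrb4b under another symbol. A match is a description and not a binding site.
Clec4d: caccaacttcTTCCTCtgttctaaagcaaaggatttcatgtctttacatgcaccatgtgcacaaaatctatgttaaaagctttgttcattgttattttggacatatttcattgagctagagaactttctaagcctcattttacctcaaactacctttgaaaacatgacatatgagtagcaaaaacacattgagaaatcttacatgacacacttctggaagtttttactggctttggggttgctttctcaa
Clec4e: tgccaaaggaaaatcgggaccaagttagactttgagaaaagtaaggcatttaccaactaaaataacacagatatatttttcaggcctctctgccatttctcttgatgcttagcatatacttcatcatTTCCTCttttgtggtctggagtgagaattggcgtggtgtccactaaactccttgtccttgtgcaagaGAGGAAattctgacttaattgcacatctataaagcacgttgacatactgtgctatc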

How the data were processed

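Per the labels, bulk RNA-seq libraries of whole tissue and of sorted sdCAMs were made from both hemispheres of 8 mice. The authors converted reads with bcl2fastq 2.20, aligned them with STAR 2.7.11a and counted them on genes with featureCounts 2.0.8, as the submitters' processing notes list, and deposited raw counts without normalization, in a table for tissue and a table for sdCAMs. Which genome build these tables use is not given unambiguously in the sources used here, so coordinates are given only for reference sequences. Libraries were grouped by treatment and hemisphere from the labels; all were labelled as batch 1.

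Genes with a summed count under 8 in tissue or 7 in sdCAM libraries were removed. Each table was fitted with edgeR 4.0.16 (TMM, quasi-likelihood test, two-sided, a mean per group of treatment and hemisphere), with Benjamini-Hochberg adjustment over all genes tested, and a gene was called at an adjusted p under 0.05 and an absolute log2 fold change over 0.59. The members and lists were chosen with earlier results of these data known. Named genes were all members, the called list genes with at least 1 CPM and the 3 largest changes per list and comparison, Tyrobp, Fcer1g, Syk, Card9, Ptpn6, Ptpn11 and Inpp5d, and the 3 genes most like each member; some of these are given by count. Genes called with a mean under 1 CPM, and Siglece and Lyn, are named to complete small counts. Alternatives were DESeq2 1.42.0, its size factors in edgeR, other filters and fold thresholds, each mouse left out, the mouse as a replicate block, the column names for A3, all 16 sdCAM libraries and Lilrb4a and Lilrb4b summed.

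Replicates are labelled as separate mice, and whether sdCAM libraries of BLZ945 mice hold pooled cells is not clear. Replicate libraries differed by more than sampling noise in every pair (chi-square per gene at least 4.49 in tissue and 35.1 in sdCAM libraries). The hemispheres of a mouse are paired by the animal, and their deviations from the group means correlated with a median r of 0.433 in tissue (0.201 to 0.663, 8 mice) and 0.153 in sdCAM libraries (0.0651 to 0.255, 6 mice), across genes, which are not independent replicates.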

Additional observations from a re-analysis of the deposited data

Results flagged for a closer look

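Among 49 combinations of a member and a group of 4 libraries with more than 3 counts in all, 5 had a library far from the other 3 by Dixon's gap. The cutoff passes about 1 in 20 groups of independent, normally distributed values. These levels often rest on few counts and share libraries, so how many flags chance gives here is not known. Trem1 was at 1.15 CPM in the ipsilateral tissue of CTL mouse B1, against 0 to 0.0884 CPM in the other 3, and at 48.4 CPM in the contralateral sdCAM library of the same mouse, against 2.90 to 5.93 CPM. In the ipsilateral tissue of BLZ945 mouse C2, Lilrb4a was at 1.98 CPM against 0.899 to 1.00 CPM and Cd300lf at 2.83 CPM against 1.10 to 1.37 CPM. Cd300a was at 1.70 CPM in the contralateral tissue of CTL mouse A3, the mouse whose hemispheres differ between labels and column names, against 0.832 to 0.951 CPM. Why these libraries stood apart was not tested.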

How the results depend on the processing

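Of the members, edgeR called 2 in the tissue of CTL mice and 4 in that of BLZ945 mice. DESeq2 called 4 and 7, where it called 0.722% and 1.76% of all genes up, against 0.443% and 1.12% by edgeR. With the hemispheres of A3 as in the column names, 0 and 0 were called, also with a replicate block added (0 and 0), a combination chosen after seeing the data. Of all 18968 genes, this combination called 0 up in CTL and 173 up in BLZ945 tissue. Leaving out each mouse in turn gave 1 to 2 in CTL and 1 to 4 in BLZ945 mice. The replicate block raised the CTL count from 2 to 3 and the BLZ945 count from 4 to 7. In sdCAM libraries, with 0 members called, DESeq2 called 1 in CTL mice, 1 in BLZ945 mice and 2 between the treatments contralaterally, and the replicate block called 2 in CTL mice; the block changed no other count of members among the comparisons within mice, the only ones it applies to. The cause of these shifts was not tested. The other counts of members called were within 1.5 times under all alternatives run, and 0 members were called by every alternative in the remaining comparisons.

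Of 714 log2 fold changes of members recomputed, 0 called values reversed, 32 lost their call, 17 gained one, and 28 that were not called changed sign, of Cd300a, Pilra, Lilrb4a, Lilrb4b, Clec4e, Pirb and Clec4d. Most tissue values rest on fewer than 30 counts per library, so their counting error is large. Whether this limited the calls was not tested.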
